A study of Rattus norvegicus with 93 samples.

Results

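The 6 genes described here encode the central receptor of the brain endocannabinoid system and the main enzymes that make and break down its ligands: Cnr1, Dagla, Daglb, Mgll, Napepld and Faah. They were taken by symbol from a table of 38354 genes. Their levels were read in 49 of the 92 libraries with a column, namely those in which Nif3l1 took under 20% of the counts and LOC120093067 and Zfp532 together under 10%. Highest inside these limits were 0.00166% and 5.50%, and lowest outside them were 28.8% and 19.8%. All libraries were made from polyadenylated RNA from outbred laboratory rats, taken from the rostromedial tegmental nucleus (RMTg) for a genomic study of avoidance learning. The labels name 93 samples in 1 group, of which 1 has no column. They give no treatment, behaviour, age, strain cross or genotype, so variation between libraries is described, without a contrast of conditions.

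The RMTg, in the brainstem, sends mostly inhibitory axons to dopamine neurons of the midbrain and takes part in avoidance of aversive outcomes. Endocannabinoids are lipid messengers that neurons release from membrane precursors on demand and that act backwards across the synapse. The receptor encoded by Cnr1 sits largely on presynaptic terminals and on some astrocytes and lowers transmitter release. The ligand 2-arachidonoylglycerol is made from diacylglycerol by the lipases Dagla and Daglb and is hydrolysed mainly by the monoglyceride lipase Mgll. Anandamide is released from N-acyl phosphatidylethanolamines by the phospholipase Napepld and is hydrolysed by the fatty acid amide hydrolase Faah.

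The deposited table placed Cnr1 on chromosome 5 at 53204867, Dagla on chromosome 1 at 216372219 and Daglb on chromosome 12 at 16215777. It placed Mgll on chromosome 4 at 122749436, Napepld on chromosome 4 at 14251591 and Faah on chromosome 5 at 134735396. The files do not name their build, but the position of each of the 38272 genes whose symbol is in the RefSeq table of the GRCr8 assembly, all 6 included, equals an end of that gene there. RefSeq promoter sequences of GRCr8, each with 250 bases before and 50 after the start site, were held for Napepld, Faah, Mgll and Daglb. None was held for Cnr1 or Dagla. Whether promoter sequence bears on the levels was not tested. Capitals mark matches to the GC box GGGCGG on either strand, the element bound by Sp1-type factors. The Napepld stretch is chr4:14253010-14253309 on the plus strand, that of Mgll chr4:122749186-122749485 on the plus strand, that of Faah chr5:134735347-134735646 on the minus strand and that of Daglb chr12:16215709-16216008 on the minus strand.
Napepld: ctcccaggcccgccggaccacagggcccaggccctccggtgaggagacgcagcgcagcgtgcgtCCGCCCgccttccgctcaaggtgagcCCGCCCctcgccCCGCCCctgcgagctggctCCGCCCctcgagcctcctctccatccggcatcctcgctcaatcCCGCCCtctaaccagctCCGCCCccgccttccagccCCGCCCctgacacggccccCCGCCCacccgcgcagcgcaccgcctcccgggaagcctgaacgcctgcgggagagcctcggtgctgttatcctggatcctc
Mgll: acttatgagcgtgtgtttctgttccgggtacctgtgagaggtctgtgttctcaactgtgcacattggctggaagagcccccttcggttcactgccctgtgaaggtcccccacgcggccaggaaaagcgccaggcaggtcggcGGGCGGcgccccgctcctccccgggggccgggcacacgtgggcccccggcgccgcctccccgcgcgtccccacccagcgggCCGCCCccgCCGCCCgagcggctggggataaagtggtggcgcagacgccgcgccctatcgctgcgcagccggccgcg
Faah: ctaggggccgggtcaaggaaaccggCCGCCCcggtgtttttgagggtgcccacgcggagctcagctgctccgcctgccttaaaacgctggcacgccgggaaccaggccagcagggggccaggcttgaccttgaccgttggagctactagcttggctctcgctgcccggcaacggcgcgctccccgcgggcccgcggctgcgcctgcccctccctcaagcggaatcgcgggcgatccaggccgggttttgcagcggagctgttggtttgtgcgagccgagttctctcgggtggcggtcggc
Daglb: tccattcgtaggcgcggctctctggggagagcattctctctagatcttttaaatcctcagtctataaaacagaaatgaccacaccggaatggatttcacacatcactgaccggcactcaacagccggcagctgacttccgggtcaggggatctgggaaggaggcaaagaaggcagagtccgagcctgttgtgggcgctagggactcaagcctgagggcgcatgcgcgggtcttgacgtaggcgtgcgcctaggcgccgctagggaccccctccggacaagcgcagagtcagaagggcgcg

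The Napepld stretch held 8 GC boxes, against 3 in Mgll, 1 in Faah and 0 in Daglb. At least 1 GC box was present in 33.1% of all 33469 promoters of the same length. GC content was 74.7% in Napepld, 72.3% in Mgll, 69.7% in Faah and 59% in Daglb, where the median promoter had 51.7%. CpG dinucleotides numbered 32, 35, 32 and 21 in the same order, where the median promoter had 7. Other motifs searched on both strands differed between the 4 stretches. Mgll held 1 E-box CACGTG, present in 6.42% of promoters, and 1 CCAAT box, present in 37.5%. Faah held 1 nuclear receptor half-site AAGGTCA, present in 4.61%. Daglb held 1 TATAAA, present in 14.2%, and 1 cyclic AMP response half-site TGACG, present in 21.2%. None of these motifs was found in the Napepld window. The Napepld start site of the RefSeq table lies 1669 bases from the deposited position and that of Daglb 19 bases, whereas those of Faah and Mgll coincide with it. A match is a stretch of letters, and binding was not measured.

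Counts per library, estimated by kallisto 0.48 per the submitters' processing notes, summed to 9.55 to 50.2 M in the 49 libraries (median 19.2 M, where M is 1000000). Sample identifiers fall into number series, of which B, C, D, E and F held 7, 16, 12, 7 and 7 of these libraries. With those left out they held 34, 25, 13, 7 and 7. Series A held 6, of which 0 were used. The labels do not say what such a series is. All 11 listed RMTg inhibitory markers passed the filter on low values, with median levels from 3.96 to 453 CPM (counts per 1000000), and so did 5 of 5 serotonergic markers (5.84 to 183 CPM) and 9 of 9 oligodendrocyte markers (255 to 29665 CPM). All listed dopaminergic (11), astrocyte (9), microglia (10) and endothelial (8) markers passed too, as did 18749 of all 38354 genes. Passing therefore does not set the RMTg markers apart. In bulk tissue, fewer cells of a type and less RNA per cell cannot be told apart. No library was a copy of another: among 1176 pairs, 0 were identical. The labels do not say in words that every library is a different animal, so p-values measure the spread between these libraries.

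All 6 genes were measured in every one of the 49 libraries, and the lowest estimated count of any of them was 165. The receptor gene Cnr1 had 14.7 CPM in its lowest library, 28.4 CPM at the median and 57.1 CPM in its highest. A single library stood apart at the top, where the next value was 38.1 CPM, and 2 libraries lay apart at the bottom, at 14.7 and 16.5 CPM with the next at 22.01 CPM. The lower and upper quartiles were 26.6 and 30.8 CPM. Its mean was 28.97 ± 5.88 CPM (SD, n = 49).

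Of the lipases that make 2-arachidonoylglycerol, Dagla had 14.5 CPM at its lowest, 19.3 CPM at the median and 27.8 CPM at its highest. The related Daglb had 20.03 CPM at its lowest, 29.5 CPM at the median and 42.5 CPM at its highest. Neither gene had a library as far from the next as the highest library of Cnr1: the widest gap between neighbouring log2 values was 0.07 for Dagla and 0.12 for Daglb, against 0.57 for Cnr1. Mgll, whose product removes this ligand, had 24.3 CPM at its lowest, 39.2 CPM at the median and 52.8 CPM at its highest. Its lowest 2 libraries, at 24.3 and 25.4 CPM, stood apart from the rest by 0.23 on the log2 scale.

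Napepld, on the synthetic side of anandamide, had 17.4 CPM at its lowest, 21.5 CPM at the median and 29.3 CPM at its highest. Its highest level was 1.68 times its lowest, the narrowest span of the 6 genes. The hydrolase gene Faah had 15.1 CPM at its lowest, 24.4 CPM at the median and 44.4 CPM at its highest, with the next highest library at 34.05 CPM. Because counts are not adjusted for transcript length, these values rank libraries within a gene and not genes against each other.

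**Figure D1:**
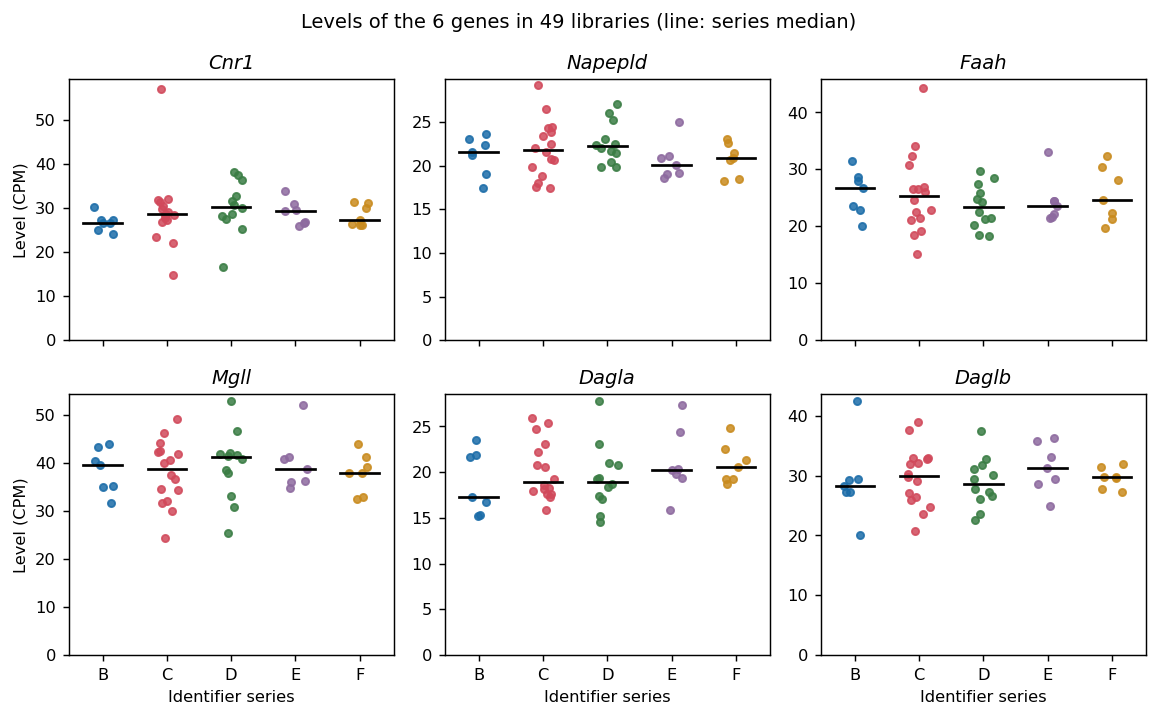
Level of each gene in each of the 49 libraries (y axis, CPM, starting at 0) by identifier series (x axis), with 1 point per library and a line at the series median. The series overlap for every gene, and the libraries at 57.1 and 14.7 CPM of Cnr1 both lie in series C.

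On the log2(CPM + 1) scale, the SD over the 49 libraries was 0.27 for Cnr1 and Faah, 0.22 for Mgll and Dagla, 0.21 for Daglb and 0.17 for Napepld. The median SD of all 18749 genes past the filter was 0.29. Within its decile of genes by mean level, Napepld had a lower SD than all but 1.71% of the 1874 genes, whereas 64.8% of the genes in the decile of Cnr1 and 66.8% in that of Faah had a lower SD than the gene itself.

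Among the 49 libraries used, no difference between identifier series was detectable beyond the spread between libraries. Series B enters with 7 of its 34 libraries, and series A does not enter. Series medians ran from 26.6 CPM (series B) to 30.2 CPM (series D) for Cnr1, from 23.4 (D) to 26.8 CPM (B) for Faah and from 37.9 (F) to 41.1 CPM (D) for Mgll. They ran from 17.3 (B) to 20.6 CPM (F) for Dagla, from 28.4 (B) to 31.3 CPM (E) for Daglb and from 20.1 (E) to 22.2 CPM (D) for Napepld. In limma's moderated F test across series, 0 of the 6 genes had a Benjamini-Hochberg adjusted p under 0.05, and 0 had an unadjusted p under 0.05, where 1.71% of all 18749 genes were called. Their adjusted p-values lay between 0.81 and 0.99.

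The 6 genes did not vary as 1 unit. Libraries with more Cnr1 tended to have less Mgll, Faah and Dagla. Without the libraries of highest and lowest Cnr1, Faah and Dagla no longer passed the threshold with Cnr1. Mgll, Faah, Dagla and Daglb tended to be high in the same libraries, and Napepld varied apart from all 5. Over the 15 pairs, 9 had a Pearson correlation past the threshold after Benjamini-Hochberg adjustment over the pairs (two-sided permutation tests, 100000 permutations), 6 positive and 3 negative, and 8 also passed with Spearman's rho. Adjusted p-values given for single pairs below come from limma's slopes and are adjusted over all 18748 other genes.

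The most negative r was that of the receptor and the hydrolase of 2-arachidonoylglycerol. Cnr1 and Mgll had r = -0.65 and rho = -0.53 (permutation p = 1e-05, the smallest these permutations can give, and 0.00013). Per SD of Cnr1, log2 Mgll fell by 0.14 ± 0.03 (SE, adjusted p = 2.25e-05). Of the 24 libraries above the median of Cnr1, 6 were above the median of Mgll and 18 were not. With the 2 libraries most distant from the Cnr1 median left out, r was -0.52. Within series, r was -0.86 in C, -0.67 in D, -0.29 in E and -0.40 in F, and 0.30 in B.

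Cnr1 and Faah had r = -0.50 and rho = -0.33 (permutation p = 0.00044 and 0.023), and log2 Faah fell by 0.14 ± 0.03 per SD of Cnr1 (SE, limma adjusted p = 0.00212). Of the libraries above the median of Cnr1, 10 were above the median of Faah and 14 were not. The correlation rests on the libraries at the ends of Cnr1, since r was -0.19 without those 2. Within series it was -0.75 in C and -0.61 in F, but -0.060 in D, -0.32 in E and 0.35 in B.

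Cnr1 and Dagla had r = -0.42 and rho = -0.36 (permutation p = 0.0023 and 0.012), and log2 Dagla fell by 0.09 ± 0.03 per SD of Cnr1 (SE, limma adjusted p = 0.0184). Above the median of Cnr1, 8 libraries were above the median of Dagla and 16 were not. Without the 2 libraries at the ends of Cnr1, r was -0.30 and no longer passed the threshold. In series B the sign was the opposite, with r = 0.68, against -0.72 in C, -0.52 in D, -0.13 in E and -0.18 in F. With the neuron, astrocyte, oligodendrocyte and precursor scores regressed out, r of Cnr1 was -0.33 with Faah and -0.29 with Dagla, and neither passed the threshold. No relation was detectable for Cnr1 and Daglb (r = -0.028, rho = 0.045, permutation p = 0.85 and 0.76). Counted in the fit over all genes, 3 of the other 5 genes fell with Cnr1 and 0 rose, where 13.6% of all genes fell and 12.7% rose.

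**Figure D2:**
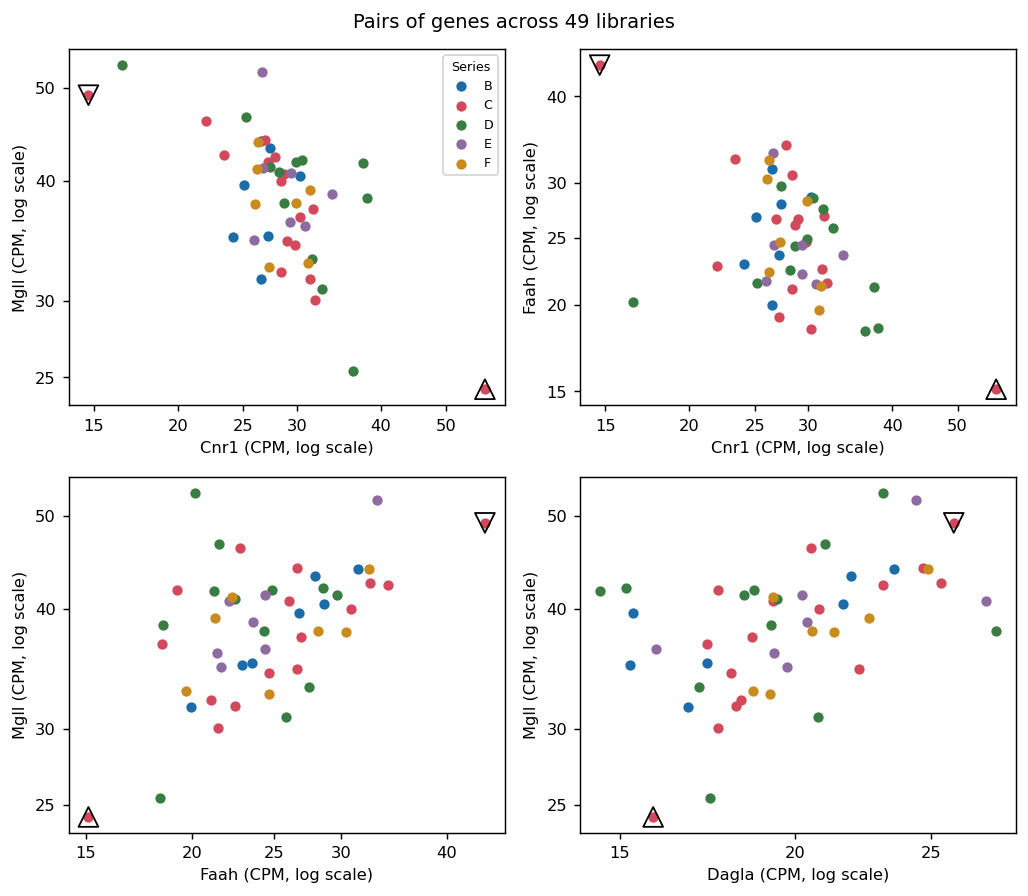
CPM of 2 genes on log axes, 1 point per library, coloured by identifier series, for Cnr1 against Mgll and Faah and for Mgll against Faah and Dagla. The upward triangle marks the library of highest Cnr1 (57.1 CPM) and the downward triangle that of lowest Cnr1 (14.7 CPM), which lie at opposite corners of the panels with Cnr1.

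The libraries at the ends of Cnr1, both of series C, carried opposite levels of the hydrolase genes. The library of highest Cnr1 had 57.1 CPM of Cnr1 and the lowest levels of the 49 for Mgll (24.3 CPM), Faah (15.1 CPM) and Napepld (17.4 CPM). The library of lowest Cnr1 had 14.7 CPM of Cnr1, the highest Faah (44.4 CPM) and the third highest Mgll (49.1 CPM), Dagla (25.96 CPM) and Daglb (37.7 CPM). Their totals were 17.5 and 26.7 M counts. Marker scores, each the mean z-scored log2 level of a list, lay at the ends in these libraries for some of the 12 lists. The library of highest Cnr1 ranked first of 49 for the astrocyte score (1.39) and the serotonergic score (2.02), and the library of lowest Cnr1 ranked last for both (-1.45 and -1.38). On the neuron and oligodendrocyte precursor scores the library of highest Cnr1 ranked 48 of 49 (-1.22 and -1.37), and the library of lowest Cnr1 ranked 17 and 31 (0.25 and -0.16). On the RMTg inhibitory, microglia and immediate early scores, ranks were 26, 22 and 16 in the library of highest Cnr1 and 38, 16 and 31 in that of lowest Cnr1. For the score of nuclear-encoded respiratory chain genes, the library of highest Cnr1 had 0.61 and the library of lowest Cnr1 had -3.92, the lowest of the 49. Whether cell makeup or RNA quality has a part in their levels was not tested.

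Other libraries near the ends of Cnr1 did not share every feature. Next above 14.7 CPM of Cnr1 came a library of series D with 16.5 CPM of Cnr1, the highest Mgll of all (52.8 CPM), and Faah at only 20.2 CPM. Among the 3 libraries that followed the highest, all of series D with 36.4 to 38.1 CPM of Cnr1, Mgll was 38.4, 41.7 and 25.4 CPM and Faah 18.5, 21.2 and 18.4 CPM. Faah was below its median in all 3 of these libraries, whereas Mgll was far below its median in 1 of them only.

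The hydrolase genes of both ligands were high in the same libraries. Faah and Mgll had r = 0.52 and rho = 0.43 (permutation p = 0.00015 and 0.0021), and log2 Mgll rose by 0.12 ± 0.03 per SD of Faah (SE, limma adjusted p = 0.00113). Above the median of Faah, 16 of 24 libraries were also above the median of Mgll. Within series, r was 0.97 in B and 0.90 in E, 0.70 in C and 0.48 in F, but 0.059 in D. With the 2 libraries most distant from the Faah median left out, r was 0.38. With the neuron, astrocyte, oligodendrocyte and precursor scores regressed out, r was 0.12 and no longer passed the threshold.

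Dagla varied with both hydrolases, although it stands on the synthetic side of 2-arachidonoylglycerol. Mgll and Dagla had r = 0.50 and rho = 0.53 (permutation p = 0.00025 and 0.00012, limma adjusted p = 0.00432), with r positive in all 5 series, from 0.17 in D to 0.75 in F. Faah and Dagla had r = 0.48 and rho = 0.44 (permutation p = 0.00053 and 0.0017, limma adjusted p = 0.00609), with r of 0.74 in B, 0.86 in C, 0.25 in E and 0.62 in F, but -0.13 in D. With the same 4 cell scores regressed out, Faah and Dagla had r = 0.30 and no longer passed the threshold.

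Daglb was also high with Dagla and Faah. Dagla and Daglb had r = 0.39 and rho = 0.35 (permutation p = 0.0062 and 0.014, limma adjusted p = 0.0412), with r between 0.18 and 0.58 within the 5 series. Faah and Daglb had r = 0.36 and rho = 0.33 (permutation p = 0.011 and 0.022, limma adjusted p = 0.0484), with r of -0.19 in F, 0.093 in D and 0.36 to 0.60 in the other series. Mgll and Daglb had r = 0.36 and rho = 0.30 (permutation p = 0.011 and 0.037), with r between 0.27 and 0.71 within series, and missed the threshold over all genes at a limma adjusted p of 0.0504 or 0.0505, depending on which gene was regressed on the other. With the respiratory chain score regressed out, r of Daglb with Dagla, Faah and Mgll was 0.31, 0.19 and 0.27 and no longer passed the threshold. Nor did Daglb pass with Dagla (0.26) and Faah (0.31) with Xist and Ddx3y, transcribed from the X and Y chromosomes, regressed out, with Faah (0.24) and Mgll (0.31) after median-of-ratios scaling, with Faah (0.13) and Mgll (0.26) with the 4 cell scores regressed out, or with Dagla (0.32) without the 2 libraries most distant from the Dagla median.

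Napepld showed no detectable relation to the other 5 genes. Its r was 0.15 with Mgll, 0.12 with Faah, 0.0081 with Daglb, -0.029 with Dagla and -0.11 with Cnr1, and the lowest permutation p of these was 0.29. For anandamide, the genes of synthesis and breakdown, Napepld and Faah, thus had r = 0.12, where those of 2-arachidonoylglycerol, Dagla and Mgll, had r = 0.50. Whether these correlations differ from each other was not tested. No gene of 18748 had a limma slope on Napepld past the threshold (0%), and 708 had an unadjusted p under 0.05.

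**Figure D3:**
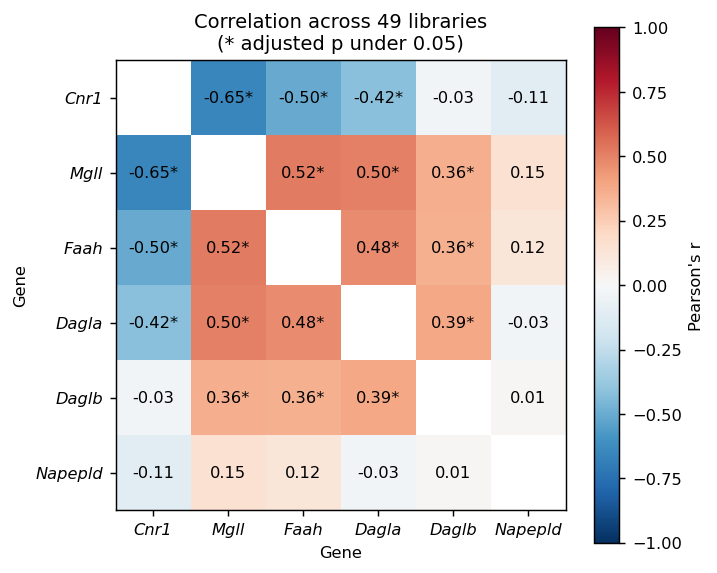
Pearson's r across 49 libraries for each pair of the 6 genes (both axes), coloured from -1 to 1, with an asterisk where the p adjusted over the 15 pairs is under 0.05. Mgll, Faah, Dagla and Daglb form a positive block, Cnr1 is negative with 3 of them, and the row of Napepld lies between -0.11 and 0.15.

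Marker scores of cell types were set beside the levels of the 6 genes, with limma's slope of each gene on each score adjusted over all genes outside the list. Of 72 slopes, 11 passed the threshold, 9 rising and 2 falling. Many genes follow these scores, so each count is given beside that background.

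Cnr1 rose with the astrocyte score by 0.13 ± 0.03 log2 units per SD of the score (SE, limma adjusted p = 0.00367), the only one of the 6 genes called on that score, where 14.4% of all genes rose. Without the libraries at the ends of Cnr1 the slope was 0.048 and no longer past the threshold. Within series, r was 0.78 in C, 0.42 in D and 0.27 in E, but -0.33 in B and -0.70 in F. In the fit of all genes on Cnr1, 5 of 9 astrocyte markers rose and 0 fell, where 12.7% of all genes rose and 13.6% fell. That fit uses the same libraries, both ends of Cnr1 included, and is not separate evidence.

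Faah and Mgll rose with both oligodendrocyte scores. On the score of mature oligodendrocytes, Faah rose by 0.11 ± 0.04, Mgll by 0.09 ± 0.03 and Daglb by 0.09 ± 0.03 log2 units per SD (SE, limma adjusted p = 0.0358, 0.0241 and 0.016), 3 of 6 genes, where 12% of all genes rose. These 3 slopes were positive in all 5 series, with r from 0.15 to 0.69 for Faah, 0.22 to 0.72 for Mgll and 0.13 to 0.76 for Daglb. On the score of oligodendrocyte precursors, Faah rose by 0.12 ± 0.04 and Mgll by 0.11 ± 0.03 (SE, limma adjusted p = 0.0215 and 0.00539), 2 of 6 genes, where 13.3% of all genes rose. Within series, r ran from 0.072 to 0.85 for Faah and from 0.11 to 0.83 for Mgll. With median-of-ratios scaling in place of totals, the slopes of Faah (0.05 on both scores) and Mgll (0.07 and 0.09) missed the threshold, as did those of Faah on both scores and of Mgll and Daglb on the mature score (0.06 and 0.07, 0.08 and 0.08) with the respiratory chain score as a covariate. On the mature score, Faah and Daglb also missed it with Xist and Ddx3y as covariates (limma adjusted p = 0.0577 and 0.0986), Daglb with the first principal component as a covariate (0.18), Faah with no filter (0.062), and Faah and Mgll without the libraries at the ends of Cnr1 (0.0962 and 0.0505).

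Dagla and Daglb rose with the neuron score, by 0.12 ± 0.03 and 0.08 ± 0.03 log2 units per SD (SE, limma adjusted p = 0.00313 and 0.0319), 2 of 6 genes, where 15.9% of all genes rose. Dagla had r of 0.72 in B, 0.53 in C, 0.81 in D and 0.14 in E, but -0.36 in F. Daglb had r between 0.32 and 0.52 in all 5 series, but its slope missed the threshold with series as a covariate (limma adjusted p = 0.0537) and with Xist and Ddx3y (limma adjusted p = 0.18) or the first principal component (limma adjusted p = 0.367) as covariates. Faah had a slope of similar size, 0.10 ± 0.04, that missed the threshold (SE, limma adjusted p = 0.05003).

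The score of respiratory chain genes, nuclear-encoded subunits of the mitochondrial electron transport chain and ATP synthase, moved with 3 genes. Faah fell by 0.16 ± 0.03 and Daglb fell by 0.08 ± 0.03 log2 units per SD of that score (SE, limma adjusted p = 0.000294 and 0.0387), 2 of 6 genes, where 16.2% of all genes fell. Cnr1 rose by 0.10 ± 0.04 (SE, limma adjusted p = 0.0448), 1 of 6 genes, where 9.71% of all genes rose. Without the libraries of highest and lowest Cnr1 the slope of Cnr1 was -0.035 and not past the threshold, and within series r was 0.74 in C and between -0.51 and -0.18 in the other 4. For Faah, r was between -0.70 and -0.29 in B to E and 0.19 in F. The slope of Faah was -0.093 without the libraries at the ends of Cnr1 and -0.10 without the 2 most distant on the score. Both still passed the threshold (limma adjusted p = 0.0387 and 0.0312). For Daglb, r was between -0.81 and -0.063 in B to E and 0.59 in F. The slope of Daglb missed the threshold with median-of-ratios scaling (-0.035), with Xist and Ddx3y as covariates (-0.027), with no filter (limma adjusted p = 0.0562) and without the 2 libraries most distant on the score (-0.075) or at the ends of Cnr1 (-0.079). The part of this score in the correlations between the genes was examined by regressing it out, and the results are given with the other alternatives.

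On the 7 other scores, 0 of 42 slopes passed the threshold in limma and 6 had an unadjusted p under 0.05. The share of all genes called was 0.0213% on the RMTg inhibitory score, 0% on the vesicular glutamate transporter score, 2.94% on the dopaminergic score and 0.00534% on the serotonergic score. It was 2.75% on the microglia score, 16% on the endothelial score and 11.9% on the immediate early gene score. Dagla had the largest slope on the RMTg inhibitory score, 0.10 ± 0.03 (SE, limma adjusted p = 0.286), and Cnr1 that on the serotonergic score, 0.11 ± 0.04 (SE, limma adjusted p = 0.487). Napepld passed on 0 of the 12 scores in limma, with an unadjusted p under 0.05 on 1.

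**Figure D4:**
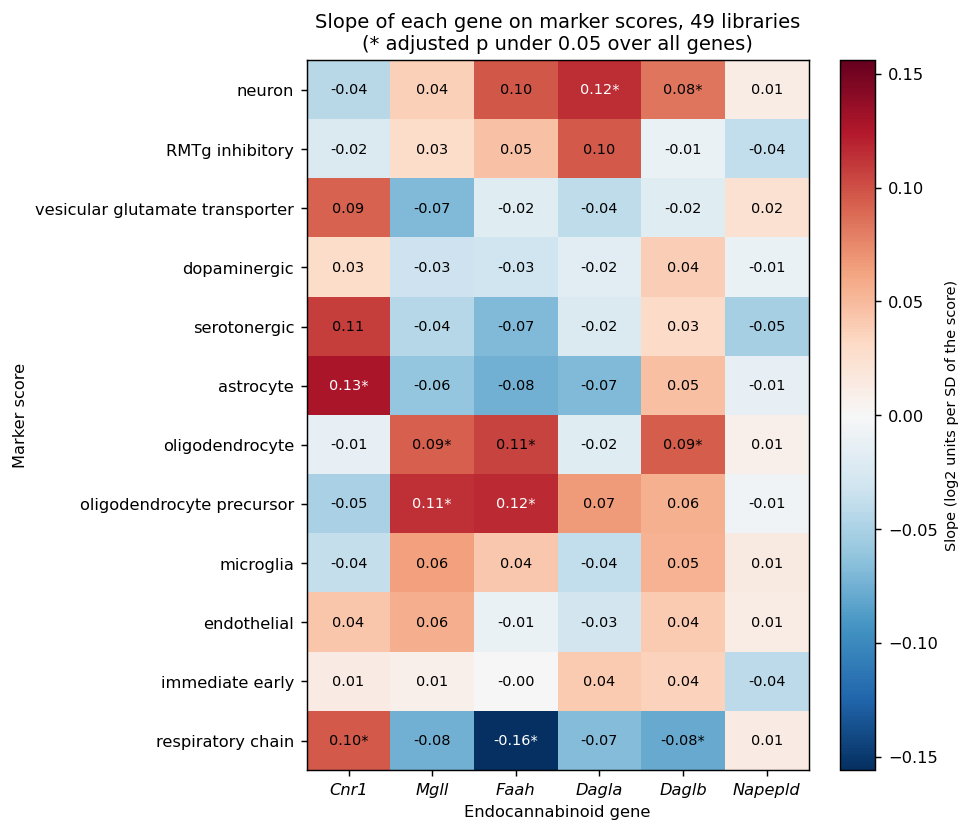
Slope of each of the 6 genes (columns) on each marker score (rows), in log2 units per SD of the score over 49 libraries, with an asterisk where limma's adjusted p over all genes is under 0.05. The strongest cells are the rise of Cnr1 with the astrocyte score (0.13) and the fall of Faah with the respiratory chain score (-0.16), and the Napepld column holds no asterisk.

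The genes whose levels ran most like each of the 6 differed between them. Genes were named if they passed the threshold over all genes and had 1 sign of r in every series, and were taken from the 5 highest positive and the 3 most negative values. Cnr1 had 4933 genes past the threshold (26.3% of 18748), Faah 5870 (31.3%), Mgll 4560 (24.3%), Daglb 4163 (22.2%) and Dagla 3514 (18.7%). For Daglb the count was 41 with Xist and Ddx3y as covariates and 4 with the 4 cell scores. Without the libraries of highest and lowest Cnr1, counts were 2941 for Cnr1, 2594 for Faah, 1569 for Mgll and 1788 for Dagla.

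Closest to Cnr1 were the zinc finger gene Zfp770 (r = 0.84), the nucleosome assembly gene Nap1l2 (0.84), the bicarbonate transporter gene Slc4a10 (0.83), the membrane protein gene Tmem47 (0.82) and the neuronal RNA-binding protein gene Elavl2 (0.82). Zfp770 spanned 4.11 to 45.7 CPM and Nap1l2 52.1 to 204 CPM over the same libraries. Their r within single series went as low as 0.0092 for Tmem47 and 0.22 for Nap1l2 and as high as 0.97 for Zfp770. Most opposite were Tmem234 (-0.78), the corepressor component gene Gps2 (-0.70) and Nudt22 (-0.67).

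Among the genes closest to Mgll were the oligodendrocyte transcription factor gene Nkx6-2 (r = 0.82), Gjb1 (0.80), which encodes the gap junction protein connexin 32, the actin regulator gene Phactr1 (0.80) and Gal3st1 (0.76), which encodes the sulphotransferase that makes the myelin lipid sulfatide. Nkx6-2 had 33.5 CPM at its lowest, 54.9 CPM at the median and 95.8 CPM at its highest, with r between 0.67 and 0.89 within series. Gjb1 spanned 75.7 to 181 CPM, with r between 0.55 and 0.89. Most opposite were the acylphosphatase gene Acyp2 (-0.76), Fam149a (-0.75) and the nuclear matrix gene Matr3 (-0.75).

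Closest to Faah were the kinase-like gene Fastk (r = 0.85), the Mediator subunit gene Med24 (0.82), the striatin family gene Strn4 (0.82), Carns1 (0.82), which encodes the synthase of carnosine, and Ndor1 (0.81), an oxidoreductase gene. Carns1 spanned 52.7 to 241 CPM, with r between 0.63 and 0.93 within series, and Fastk 45.6 to 114 CPM, with r between 0.64 and 0.97. Most opposite were the transcriptional coactivator gene Sub1 (-0.78), Tceal9 (-0.76) and the protocadherin gene Pcdh10 (-0.75).

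Among those closest to Dagla were Rusc2 (r = 0.79), the synaptic scaffold gene Git1 (0.75), Scaf1 (0.75) and C20h6orf136 (0.75), and most opposite were the ubiquitin hydrolase gene Uchl3 (-0.69), Ebag9 (-0.66) and Pdcd10 (-0.66). Among those closest to Daglb were Ccdc92 (0.68), Ndrg1 (0.68), the dynactin subunit gene Dctn2 (0.68) and Map6d1 (0.68). Most opposite to Daglb were the translation initiation factor gene Eif2s2 (-0.74), with r between -0.79 and -0.73 within series, Taf1d (-0.66) and Nbeal1 (-0.65). Napepld had no gene past the threshold to name.

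Of 23 other genes of the pathway, 21 passed the filter on low values, and Gdpd3 and Pparg, at medians of 0.072 and 0.31 CPM, did not. Across series, 0 of the 21 passed limma's F test at the adjusted threshold, where 1.71% of all genes did, and 3 (Gde1, Fabp5 and Plcb1) had an unadjusted p under 0.05. Medians of other receptor genes were 1.26 CPM for Cnr2, which encodes the other cannabinoid receptor, 0.75 CPM for the lipid-sensing receptor gene Gpr55 and 1.26 CPM for Trpv1, the capsaicin receptor that anandamide also activates. Pathway calls below are those of the main settings and are not given under the alternatives. Over all genes, calls on Daglb fell from 4163 to 41 with Xist and Ddx3y as covariates and to 4 with the 4 cell scores. Those on Faah fell from 5870 to 1662 with the 4 cell scores. Those on Cnr1 fell from 4933 to 2941 without the libraries at its ends.

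Genes of other enzymes that can hydrolyse 2-arachidonoylglycerol, Abhd6 (18.2, 51.3 and 64.7 CPM at the lowest, median and highest) and Abhd12 (106, 172 and 241 CPM), rose with Faah and Mgll. With Faah, Abhd12 had r = 0.62 (limma adjusted p = 3.44e-05) and Abhd6 r = 0.44 (limma adjusted p = 0.00619). With Mgll, Abhd12 had r = 0.44 and Abhd6 r = 0.42 (limma adjusted p = 0.0109 and 0.0138). Abhd12 also rose with Daglb (r = 0.51, limma adjusted p = 0.00356), whereas Abhd6 did not pass with Daglb (r = 0.23). Abhd6 fell with Cnr1 (r = -0.39, limma adjusted p = 0.0219), a value not given here without the libraries at the ends of Cnr1.

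Of the listed genes of other routes to anandamide or its precursors, 6 passed the filter on low values. Among them, Abhd4 and Gde1 rose with Daglb and Faah, and Plaat3 fell with Faah (r = -0.48, limma adjusted p = 0.00209). Gdpd1, Plaat1 and Pla2g4e passed with neither Daglb nor Faah. Abhd4, a lysophospholipase that acts on precursors of anandamide (26.1, 63.3 and 97.6 CPM at the lowest, median and highest), had r = 0.63 with Daglb (limma adjusted p = 0.000233), 0.45 with Faah and 0.43 with Mgll. Gde1, a glycerophosphodiesterase that acts downstream of Abhd4, had r = 0.49 with Daglb and 0.36 with Faah (limma adjusted p = 0.00519 and 0.031). With Napepld, the enzyme of the direct route, Abhd4 had r = 0.040 and Gde1 r = 0.14.

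Genes of binding proteins that carry fatty acids and endocannabinoids inside cells fell with some of the enzymes. Fabp7, of astrocytes and precursor cells (40.2, 122 and 229 CPM at the lowest, median and highest), fell with Dagla (r = -0.51, limma adjusted p = 0.00203) and Faah (r = -0.46, limma adjusted p = 0.00279) and rose with Cnr1 (r = 0.35, limma adjusted p = 0.0367). Fabp5 fell with Faah (r = -0.40, limma adjusted p = 0.0137). Cnrip1, which encodes a protein that binds the tail of the Cnr1 receptor, rose with Daglb (r = 0.36, limma adjusted p = 0.0449) and had r = -0.16 with Cnr1 itself, not past the threshold. Sgip1, whose product limits uptake of the receptor from the membrane, had r = 0.36 with Cnr1 and missed the threshold (limma adjusted p = 0.0542).

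Counted over the 21 genes, Faah had 6 rising and 3 falling (all genes, 22.7% and 8.62%), Daglb 5 rising and 1 falling (12% and 10.2%) and Mgll 4 rising and 0 falling (15.3% and 9.02%). Cnr1 had 1 rising and 2 falling (12.7% and 13.6%), and Dagla 0 rising and 1 falling (12.2% and 6.52%). Napepld had 0 in either direction in limma, with 1 unadjusted p under 0.05. The median r of the 21 genes was 0.060 with Cnr1, 0.10 with Faah and 0.0096 with Mgll, where the median of all genes was -0.082, 0.11 and 0.094.

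**Figure D5:**
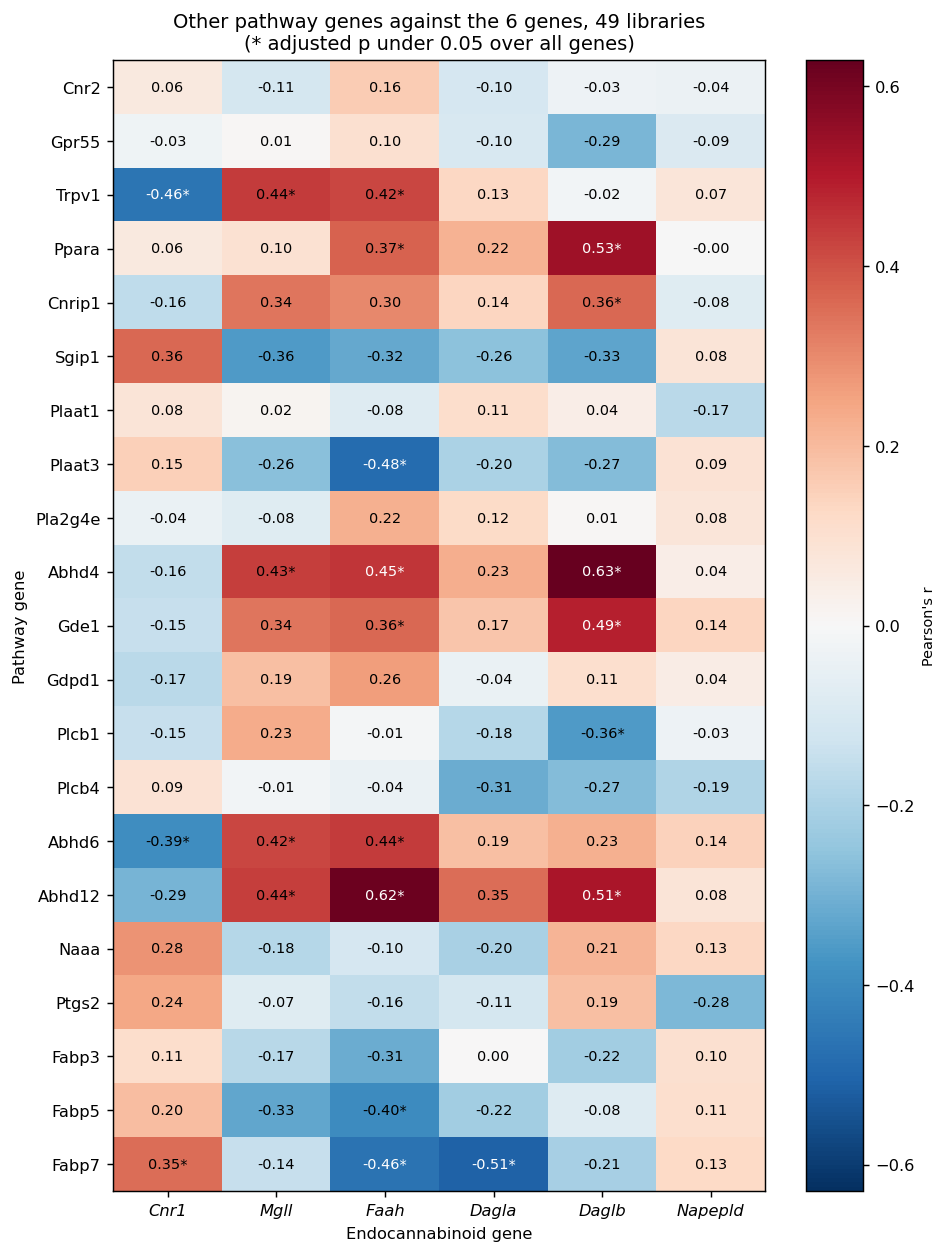
Pearson's r across 49 libraries of the 21 pathway genes past the filter (rows) with each of the 6 genes (columns), with an asterisk where limma's adjusted p over all genes is under 0.05. Abhd12 is positive with Faah (0.62), Abhd4 with Daglb (0.63), and Fabp7 negative with Dagla (-0.51), while the Napepld column has no asterisk.

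The nearest measured genes on either side of the 6 were compared with them, as the genes closest in position. Of 12 neighbours, 6 rose with their gene in limma's fit. Myrf, the transcription factor gene of myelination, lies 61.1 kb from Dagla and had r = 0.64 with it (limma adjusted p = 7.35e-05), the 132nd highest of all genes, and Syt7 on the other side, a synaptotagmin gene, had r = 0.44. Mknk1, 181 kb from Faah, had r = 0.67, and Rac1, 65.4 kb from Daglb, had r = 0.57. For Mgll, the translocon gene Sec61a1 had r = 0.39 and Abtb1 had r = 0.41. The neighbours of Cnr1 (Rngtt and Akirin2), those of Napepld (Pmpcb and Armc10), and Nsun4 beside Faah and Kdelr2 beside Daglb did not pass. With 12% to 22.7% of all genes rising with Faah, Mgll, Dagla and Daglb, the ranks of these neighbours among all genes, from the 132nd to the 2302nd, are to be read against that background.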

How the data were processed

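RNA of the RMTg was measured in 92 libraries, of which 49 were used. The labels note a corrected identifier for 1 of the 49. The authors deposited 1 table of log2 values per gene; per the submitters' processing notes kallisto 0.48 was used, and the genome build is not given in the sources used here. From the values, each is log2 of an estimated count plus 1: of back-transformed values under 20, 49.98% were whole within 0.01. No transcript lengths were used, and levels of different genes were not compared.

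Values were back-transformed, scaled by library totals to CPM and used as log2(CPM + 1). A gene was kept if this value reached 1 in 20% or more of the libraries (18749 genes). Fold changes of low genes are understated by the pseudocount. A gap over 50000 between neighbouring identifiers started a new series. Slopes and series F tests used limma 3.58.1 in R 4.3.3 with a mean trend and Benjamini-Hochberg adjustment over all genes (threshold 0.05), and the procedure was tested on simulated data. Correlations used permutation tests written with numpy 2.4.6, with ranks for rho from scipy 1.17.1. Cell-marker scores used lists of at least 3 genes and left the list's own genes out of its fit. Pathway genes, the genes most like each of the 6, and nearest neighbours were named by rule. Some genes that the rule picks are not reported here. The 6 genes, the lists, the restriction to 49 libraries and the tests were chosen with earlier results of these data known. Alternatives changed the pseudocount, filter, totals, scaling, libraries and covariates. Counts give no interval here, since estimated counts are not whole reads.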

Additional observations from a re-analysis of the deposited data

Results flagged for a closer look

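The 6 genes also gave counts in libraries that the limits on Nif3l1, LOC120093067 and Zfp532 left out of the comparisons, which is why these values are listed. In the 32 libraries where LOC120093067 and Zfp532 took 19.8% to 56.02% of the counts, median estimated counts per library were 84.02 for Cnr1, 96.1 for Napepld, 16.5 for Faah, 66.5 for Mgll, 45.4 for Dagla and 137 for Daglb, all above the 3 counts used as a floor. Median levels in the 49 libraries used and in these 32 were 28.4 and 16.3 CPM for Cnr1, 21.5 and 18.5 CPM for Napepld, 24.4 and 3.47 CPM for Faah, 39.2 and 12.1 CPM for Mgll, 19.3 and 8.20 CPM for Dagla, and 29.5 and 27.9 CPM for Daglb. Totals of these 32 libraries were 2.29 to 13.7 M counts (M, 1000000), against 9.55 to 50.2 M in the 49. Those totals include the counts of LOC120093067 and Zfp532, with a median share of 41.7% in the 32 libraries and 2.78% in the 49. CPM of the 2 sets are therefore not on the same base. On these unlike bases, the medians of the 49 and the 32 lay close for Daglb and far apart for Faah. Such closeness or distance does not give a difference in level, and the cause was not tested. In the 11 libraries where Nif3l1 took 28.8% to 51.9%, medians of the 6 genes were 0 to 0.66 CPM, and Faah and Dagla were each listed at 0 in 7 of them.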

How the results depend on the processing

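Depth set little limit in the 49 libraries, where no gene of the 6 had under 165 counts, and more in the 32 left out, where Faah had a median of 16.5. Cnr1 and Mgll kept a negative r past the threshold under every alternative within the 49 libraries. Over all 92 libraries, Faah and Mgll had medians of 18.5 and 32.7 CPM, 4 of the 6 genes differed between series, all 15 pairs and all 72 slopes passed, and r turned positive for Cnr1 with Faah (0.83), Mgll (0.92), Dagla (0.93), Daglb (0.90) and Napepld (0.94) and for Napepld with Dagla (0.87), as did the slopes on the respiratory chain score of Faah (1.64) and Daglb (1.16). Genes varying with Cnr1, Napepld, Faah, Mgll, Dagla and Daglb then numbered 18444, 18674, 17815, 18118, 18194 and 18684. The 92 include the 11 libraries of high Nif3l1, where medians of the 6 genes were 0 to 0.66 CPM. They also include the 32 whose totals hold large shares of LOC120093067 and Zfp532. Values over all 92 are thus not on the same base as those of the 49, and the cause was not tested.

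The alternatives with the respiratory chain score, the first principal component, the 4 cell scores (neuron, astrocyte, oligodendrocyte and precursor) or without both end libraries of Cnr1 were chosen after seeing the data. With the 4 cell scores as covariates, 3 of 15 pairs passed (9 in the report), Cnr1 with Faah had r = -0.33, Cnr1 with Dagla -0.29, Faah with Mgll 0.12, Faah with Dagla 0.30, Faah with Daglb 0.13 and Mgll with Daglb 0.26, and genes varying with Cnr1, Faah, Mgll, Dagla and Daglb numbered 2283, 1662, 1763, 1586 and 4. With the respiratory chain score as a covariate, 6 slopes on the 11 other scores passed, Faah with Daglb had r = 0.19 and Mgll with Daglb 0.27, and genes varying with Faah, Mgll and Dagla numbered 2826, 2916 and 1983. Without the libraries of highest and lowest Cnr1, 6 slopes passed, Cnr1 on the respiratory chain score reversed to -0.035, and genes varying with Cnr1, Faah, Mgll and Dagla numbered 2941, 2594, 1569 and 1788. With the 2 most distant libraries on each x axis left out they were 2941 for Cnr1, 2594 for Faah and 1978 for Mgll, and Dagla with Daglb had r = 0.32, no longer past the threshold. With median-of-ratios scaling 7 slopes passed, and genes varying with Mgll and Dagla numbered 2851 and 2161. With Xist and Ddx3y as covariates, 41 genes varied with Daglb, and with the first principal component 1431.

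Correlations near 0, none past the threshold, changed sign. Cnr1 with Napepld was 0.040 with median-of-ratios scaling and 0.0042 without the 2 most distant libraries or the ends of Cnr1. Cnr1 with Daglb was 0.080 with median-of-ratios scaling, 0.0066 with Xist and Ddx3y, 0.048 without the 2 most distant libraries or the ends of Cnr1, 0.12 with the respiratory chain score and 0.00063 with the cell scores. Napepld with Faah was -0.055 with median-of-ratios scaling. Napepld with Dagla was 0.016 with series and 0.0090 with Xist and Ddx3y as covariates. Napepld with Daglb was -0.00067 with totals without the dominant features, -0.0062 without the 2 farthest libraries and -0.050 with the cell scores. No paired analysis was possible because all libraries belong to 1 group.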
